A study of Homo sapiens with 3 samples.

Results

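The genes described here are those of glycolysis and of the response to low oxygen after contact with graphene nanomaterials in HepG2, an established line of human liver tumour cells. They were chosen as a list of 48 known genes, each read from its brightest probe set (by the mean over the arrays) among those annotated to that gene alone, and 43 of the 48 were measured among 18417 genes in all. Of the other 5, PGAM1 and EGLN2 had probe sets annotated to more than 1 gene, and SLC16A1, SLC16A3 and CA9 were not analysed here. The study held 3 Affymetrix arrays of total RNA: cells given graphene oxide (GO) for 24 h, cells given its reduced form (rGO), which carries fewer oxygen groups, for 24 h, and untreated control cells. Each exposure was at the material's own EC20, the dose linked to a 20% effect in a viability assay, and since no concentrations are labelled the doses of GO and rGO cannot be set side by side. All 3 groups were the same cell line kept in the same medium, and each was 1 array.

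Glycolysis breaks glucose down to pyruvate, which lactate dehydrogenase can turn into lactate when mitochondria do not take it up. When oxygen is scarce, or when the oxygen sensors are blocked, the alpha subunits of the hypoxia-inducible factors (HIF) escape destruction and switch on genes of glucose uptake and glycolysis, of blood vessel growth and of mitochondrial turnover. The control lies mainly at the protein level, because EGLN enzymes use oxygen to mark the alpha subunits and VHL then directs them to the proteasome, so the mRNA of HIF1A is no readout of HIF activity.

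HIF binds DNA at a short core, and stretches around the starts of 6 genes are shown because 4 of them (HK2, PFKFB4, ALDOC and PDK1) differed most after GO among those with a sequence, and ANKRD37 and P4HA1, both hypoxia-inducible, had near-equal values in all arrays. Each is 300 bases of RefSeq sequence (GRCh38.p14), 250 before and 50 after an annotated start, written 5′ to 3′ along the gene. Capitals mark each match to ACGTG or GCGTG on either strand, and CACGTG, the E-box, contains ACGTG on both strands and counts for it 2 times. The windows of HK2 lie on the plus strand at chr2:74833877-74834176 and chr2:74834920-74835219, that of PFKFB4 on the minus strand at chr3:48556754-48557053, and that of ALDOC on the minus strand at chr17:28576846-28577145. The windows of PDK1 lie on the plus strand at chr2:172555123-172555422 and chr2:172555840-172556139, that of ANKRD37 on the plus strand at chr4:185396591-185396890, and that of P4HA1 on the minus strand at chr10:73096817-73097116.
HK2, the upstream window: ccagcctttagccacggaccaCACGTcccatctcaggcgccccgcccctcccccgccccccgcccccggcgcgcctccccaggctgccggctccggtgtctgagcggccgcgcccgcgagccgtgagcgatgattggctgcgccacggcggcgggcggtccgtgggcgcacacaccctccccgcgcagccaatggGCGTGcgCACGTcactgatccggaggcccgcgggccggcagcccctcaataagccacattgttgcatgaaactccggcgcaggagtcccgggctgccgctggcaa
HK2, the downstream window: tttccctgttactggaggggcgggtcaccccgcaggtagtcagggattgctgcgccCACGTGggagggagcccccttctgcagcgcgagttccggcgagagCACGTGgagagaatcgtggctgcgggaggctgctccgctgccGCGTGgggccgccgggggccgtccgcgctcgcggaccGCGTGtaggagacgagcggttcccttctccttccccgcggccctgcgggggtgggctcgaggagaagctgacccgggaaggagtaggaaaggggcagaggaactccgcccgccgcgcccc
PFKFB4: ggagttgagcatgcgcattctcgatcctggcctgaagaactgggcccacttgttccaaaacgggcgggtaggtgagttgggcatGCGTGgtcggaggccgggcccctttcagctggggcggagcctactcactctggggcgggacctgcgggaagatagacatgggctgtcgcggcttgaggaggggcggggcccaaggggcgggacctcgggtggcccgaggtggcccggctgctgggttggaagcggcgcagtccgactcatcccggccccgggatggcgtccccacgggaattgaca
ALDOC: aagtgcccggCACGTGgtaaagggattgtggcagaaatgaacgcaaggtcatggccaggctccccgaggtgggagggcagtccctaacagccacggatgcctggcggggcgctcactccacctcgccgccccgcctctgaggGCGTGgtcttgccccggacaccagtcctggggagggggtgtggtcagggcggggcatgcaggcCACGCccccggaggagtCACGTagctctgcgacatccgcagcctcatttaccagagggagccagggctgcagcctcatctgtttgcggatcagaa
PDK1, the upstream window: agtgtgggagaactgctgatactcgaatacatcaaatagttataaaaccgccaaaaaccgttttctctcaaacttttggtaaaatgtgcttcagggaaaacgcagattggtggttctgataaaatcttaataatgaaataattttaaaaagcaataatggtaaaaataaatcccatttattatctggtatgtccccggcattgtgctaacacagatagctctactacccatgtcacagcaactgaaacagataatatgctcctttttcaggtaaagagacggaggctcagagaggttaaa
PDK1, the downstream window: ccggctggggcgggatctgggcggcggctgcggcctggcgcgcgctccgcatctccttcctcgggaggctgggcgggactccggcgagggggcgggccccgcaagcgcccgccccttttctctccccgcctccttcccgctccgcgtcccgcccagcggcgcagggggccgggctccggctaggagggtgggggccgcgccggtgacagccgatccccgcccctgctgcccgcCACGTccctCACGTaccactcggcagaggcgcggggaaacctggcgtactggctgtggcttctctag
ANKRD37: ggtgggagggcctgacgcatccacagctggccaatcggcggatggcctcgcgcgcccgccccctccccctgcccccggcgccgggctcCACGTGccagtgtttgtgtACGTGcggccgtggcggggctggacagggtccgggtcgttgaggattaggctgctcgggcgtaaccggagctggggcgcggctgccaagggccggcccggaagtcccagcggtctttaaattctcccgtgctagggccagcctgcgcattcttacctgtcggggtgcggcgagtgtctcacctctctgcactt
P4HA1: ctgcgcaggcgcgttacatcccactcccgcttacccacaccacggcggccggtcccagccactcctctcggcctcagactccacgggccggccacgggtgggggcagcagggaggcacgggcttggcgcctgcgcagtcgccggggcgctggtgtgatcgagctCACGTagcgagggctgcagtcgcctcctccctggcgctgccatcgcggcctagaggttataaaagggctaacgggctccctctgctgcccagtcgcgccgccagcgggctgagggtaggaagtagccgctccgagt

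The windows held 3 and 6 matches for HK2, 1 for PFKFB4, 5 for ALDOC, 0 and 2 for PDK1, 3 for ANKRD37 and 1 for P4HA1. These genes were chosen by their differences after GO, so nothing is read from their match numbers. Over the 37 measured genes with a window, 20 (54.1%) had ACGTG in at least 1 window, compared with 28.5% of 15843 protein-coding genes. The genes of this group also had more windows each, 1.78 on average against 1.40. Counted by window, 24 of 66 (36.4%) held ACGTG, against 23% of 22199 protein-coding windows and 21.4% of all 35116 windows, and 28 of 66 (42.4%) held GCGTG, against 43% and 36.5%. The median GC content of the 66 windows was 68.8%, against 62.3% in protein-coding windows, and its part in these shares was not tested. Among the glycolytic enzymes all 16 measured genes had a window with either motif, and among the other hypoxia-inducible genes 7 of the 9 with a window did, against 61.9% of protein-coding genes. The enzymes had 2.25 windows per gene, the other hypoxia-inducible genes 1.33 and protein-coding genes 1.40. Counted by window the order turned round, with either motif in 63.9% of windows of the enzymes, 75% of those of the other hypoxia-inducible genes and 54.7% of protein-coding windows. A match is a run of letters and not a shown binding site.

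After GO, 40 of the 43 genes were above control, 3 reached a 2-fold higher value and 0 a 2-fold lower one. The glucose transporter SLC2A3, the hexokinase HK2 and the glycolytic regulator PFKFB4 were the 3, and the median over all 43 genes was a log2 difference of 0.26. Over all 18417 genes the median was -0.01, with 48.7% above control, 0.174% higher by 2-fold or more and 0.603% lower by as much. At 1.5-fold, 7 of the 43 were higher, against 1.41% of all genes, and 0 were lower, against 2.99%. ALDOC, PDK1, GPI and NDRG1 completed the 7. The members had been chosen with earlier results of these data known, so the counts describe the group and are no independent evidence of its direction.

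With 1 array per group there is no replicate error and no significance test, and no difference can be told from variation between dishes or arrays. The spread of GO minus control over all genes, as a scaled median absolute deviation, was 0.217, and 5% of genes lay above 0.38. Differences of dim probe sets tend to be understated on arrays. A level of 6.66, the 40th percentile of gene means, is used below as a mark of weak signal, and 37 of the 43 genes had a mean at or above it. Their median after GO was 0.28, with 3 of the 37 at least 2-fold higher against 0.253% of the 11050 genes at that level. In RNA from whole dishes, fewer cells with a transcript and less of it in each cell cannot be told apart.

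The 3 arrays had near-equal distributions, with medians of 6.63 in the GO array, 6.66 in the rGO array and 6.65 in the control. Of 8 fixed markers of hepatocytes and HepG2, 7 were measured, and they lay between 10.8 and 13.5 in the GO array, between 11.1 and 13.6 in the rGO array and between 11.0 and 13.5 in the control. With GO, FGB, a fibrinogen chain, was 1.80-fold lower than control (-0.85) and TTR, the carrier transthyretin, 1.62-fold higher (0.70), shifts about as large as those of PDK1 and GPI below, and their part in the results was not tested. Of 15 markers of fibroblasts, endothelium and leukocytes, 10 had means under 6.66 and 0 differed by 1.5-fold between GO and control. Over all genes 1.41% were higher and 2.99% lower by as much, so 0 of 15 says little. Between GO and rGO, PDGFRB, a fibroblast and stellate cell marker, was 1.66-fold higher (0.73), where 1.3% of all genes passed 1.5-fold. Its rGO value lay below control (-0.40). The log2 values of the 15 markers summed to 96.5 with GO, 95.6 with rGO and 96.7 in the control. PTPRC, a pan-leukocyte marker, read 3.56, 3.76 and 3.65 in the same arrays, whereas LYZ, which encodes lysozyme, read 13.43, 13.38 and 13.23.

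**Figure D1:**
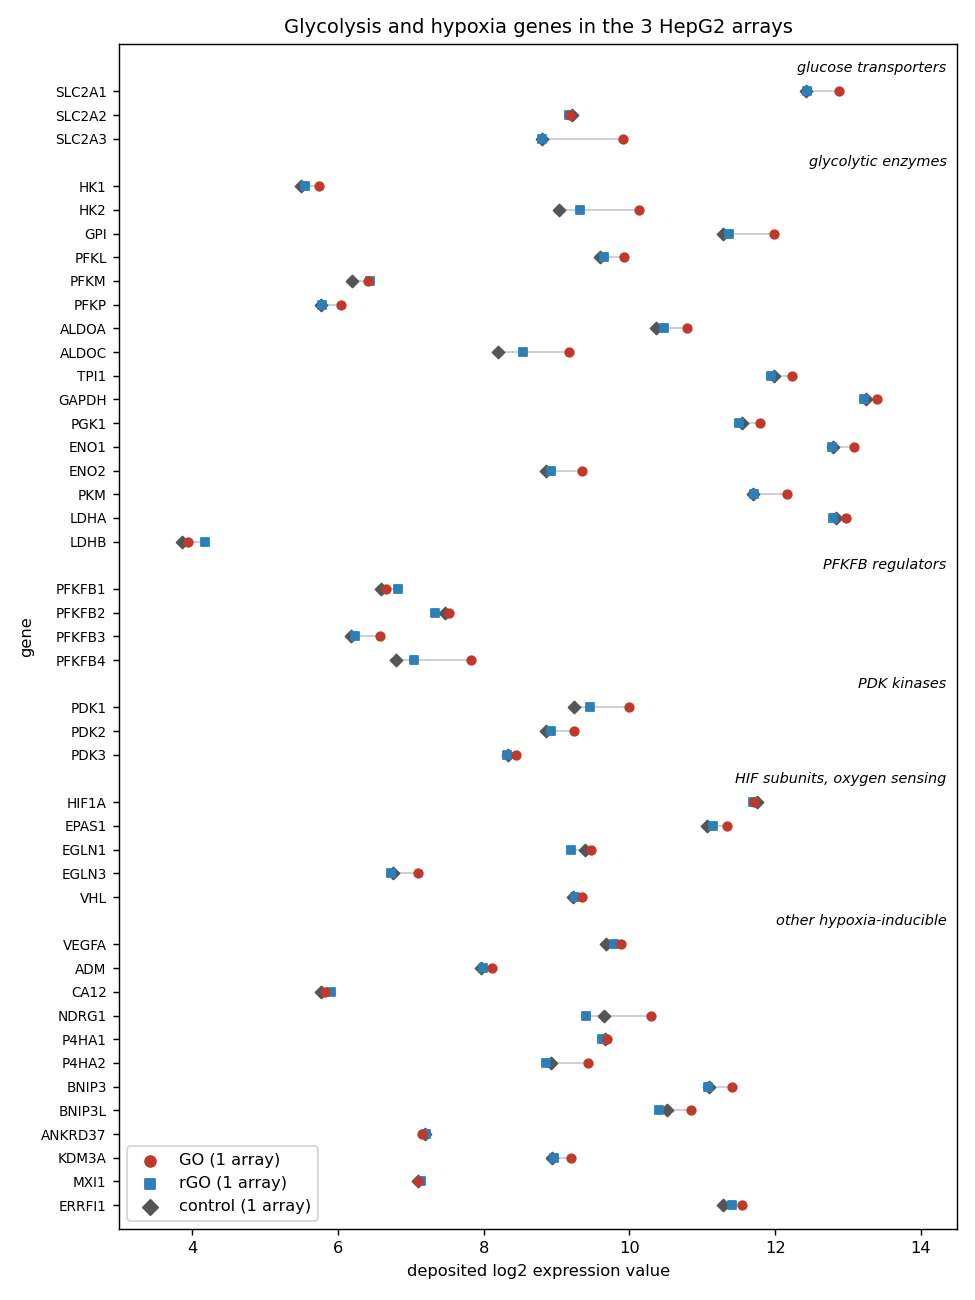
Deposited log2 expression values (x axis) of the 43 genes (rows, grouped by role) in the GO (circles), rGO (squares) and control (diamonds) arrays, 1 array each, with a line joining the lowest and highest value. For most genes the rGO and control values nearly coincide and the GO value lies to their right, furthest for SLC2A3, HK2 and PFKFB4.

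Glucose enters cells through facilitative transporters. SLC2A3, which encodes the high-affinity transporter GLUT3, had log2 values of 9.91 in the GO array, 8.80 in the rGO array and 8.80 in the control. It was 2.15-fold higher with GO (log2 difference 1.11), place 24 of 18417 genes, while the rGO and control arrays nearly coincided. SLC2A1, encoding GLUT1, the transporter of most dividing cells, read 12.88 in the GO array, 12.43 in the rGO array and 12.42 in the control. Its difference after GO was smaller (0.46), again with rGO and control nearly equal. SLC2A2, encoding GLUT2, the transporter of normal hepatocytes, read 9.18 in the GO array, 9.17 in the rGO array and 9.21 in the control, nearly equal in the 3 arrays. The differences after GO of SLC2A3 and SLC2A2 were thus apart by 1.14.

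Hexokinases trap glucose by phosphorylating it. HK2, the hypoxia-inducible isozyme that binds mitochondria, read 10.13 in the GO array, 9.32 in the rGO array and 9.04 in the control. It was 2.13-fold higher with GO (1.09, place 26), and the rGO value lay between the other arrays. HK1, the isozyme of most tissues, was dim, with 5.74 in the GO array, 5.54 in the rGO array and 5.50 in the control, and its difference after GO was 0.24. GPI, which converts glucose phosphate to fructose phosphate, was a bright probe set with 11.98 in the GO array, 11.37 in the rGO array and 11.29 in the control. The GO array stood clear of the others, with a 1.62-fold higher value (0.70).

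Phosphofructokinase commits sugar to glycolysis, and the PFKFB enzymes make and remove its strongest activator. PFKFB4, a hypoxia-inducible form of that regulator, read 7.83 in the GO array, 7.04 in the rGO array and 6.79 in the control. It was 2.06-fold higher with GO (1.04, place 31), from a control value just above the weak-signal mark. PFKFB3, a mainly kinase form of the regulator, read 6.58 in the GO array, 6.23 in the rGO array and 6.18 in the control and differed by 0.40 after GO, all 3 values being weak. PFKFB1, the liver form, and PFKFB2, best known from heart, differed by 0.08 and 0.05. The phosphofructokinase genes themselves differed less than PFKFB4: PFKL, the liver subunit, by 0.33, PFKP by 0.27 and PFKM by 0.22, with weak PFKM and PFKP signals. For PFKM the rGO difference, 0.25, was no smaller than that after GO.

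Aldolase splits the sugar in the middle of the pathway. ALDOC, the brain aldolase, read 9.17 in the GO array, 8.54 in the rGO array and 8.19 in the control, 1.97-fold higher with GO (0.98), just short of 2-fold. ALDOA, the muscle and general form, read 10.80 in the GO array, 10.48 in the rGO array and 10.37 in the control, a difference of 0.43 after GO. In both, the order of the arrays was the same, with GO highest and rGO between GO and control.

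The ATP of glycolysis is made in the steps after aldolase. Of the measured enzymes from there on 0 reached 1.5-fold, against 1.41% of all genes higher and 2.99% lower. At such shares 0 of so few genes says little about these steps. TPI1, which interconverts the triose phosphates, stood at 0.25 after GO, PGK1, the kinase that forms the first ATP, at 0.25, and GAPDH, which oxidises the triose, at 0.14. GAPDH read 13.39 in the GO array, 13.21 in the rGO array and 13.25 in the control, so this gene, often used as a loading reference, was also highest with GO. ENO1, the general enolase, stood at 0.29 and ENO2, the neuronal enolase, at 0.49. PKM, the pyruvate kinase of tumours and muscle, read 12.16 in the GO array, 11.71 in the rGO array and 11.69 in the control, a difference of 0.47. LDHA, which reduces pyruvate to lactate, read 12.97 in the GO array, 12.80 in the rGO array and 12.84 in the control and was close to GAPDH in its difference (0.13). LDHB, the heart form, lay near the bottom of the scale with 3.94 in the GO array, 4.18 in the rGO array and 3.86 in the control, where differences have little meaning.

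The 184 genes with a mean of 12 or more had a median difference of 0.00, and the 5 genes of this group at that level had one of 0.25; the level was chosen after the data were seen, and the part of brightness in the differences was not tested.

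**Figure D2:**
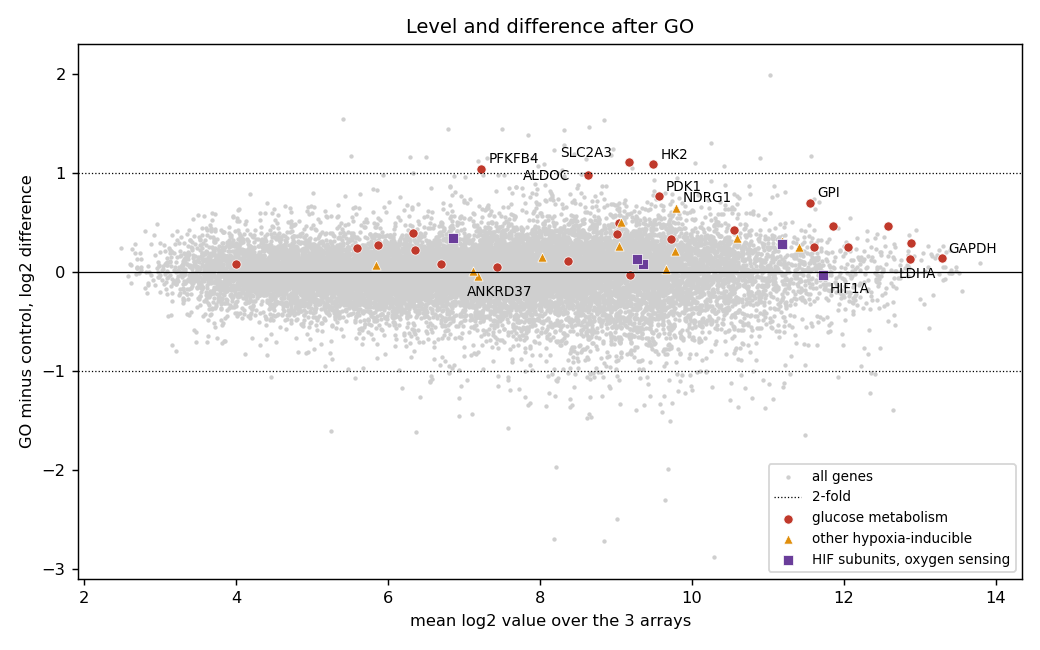
GO minus control as a log2 difference (y axis) against the mean log2 value over the 3 arrays (x axis) for all 18417 genes (grey) and the 43 genes (coloured by role); dotted lines mark 2-fold. The coloured points lie mostly above 0 at all levels, with SLC2A3, HK2 and PFKFB4 above the upper line.

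Pyruvate dehydrogenase kinases (PDK) keep pyruvate out of the citric acid cycle by switching off pyruvate dehydrogenase. PDK1, a direct HIF target, read 9.996 in the GO array, 9.45 in the rGO array and 9.24 in the control. It was 1.69-fold higher with GO (0.76), and rGO lay between GO and control. PDK2, the widespread form, differed by 0.39 and PDK3 by 0.11. All 3 kinases were highest in the GO array.

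Differences after GO were unequal within isozyme families. Taking the member furthest up in each of 6 families, which makes each gap positive by choice, the gap was 0.85 for HK2 over HK1 and 0.47 for HK2 over the hexokinase relative HKDC1. It was 0.65 for PFKFB4 over PFKFB3, 0.65 for SLC2A3 over SLC2A1, 0.55 for ALDOC over ALDOA and 0.38 for PDK1 over PDK2. For ENO2 over ENO1 it was 0.20, smaller than the spread of 0.217 over all genes. The partner matters too, with gaps of 1.14 for SLC2A3 over SLC2A2, 0.99 for PFKFB4 over PFKFB2 and 0.65 for PDK1 over PDK3. ENO3, at -0.45 after GO, was not paired. The order of the gaps thus depends on the partners taken. The phosphofructokinase and lactate dehydrogenase genes differed from each other by 0.11 or less (PFKL over PFKM 0.11, LDHA over LDHB 0.05). The means of HK1, PFKFB3, PFKM, PFKP and LDHB lay under 6.66, so large and small gaps with these partners rest on weak signals. Such gaps show unequal differences of probe sets, and they do not rank the isozymes by amount, since levels of different probe sets are not comparable.

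**Figure D3:**
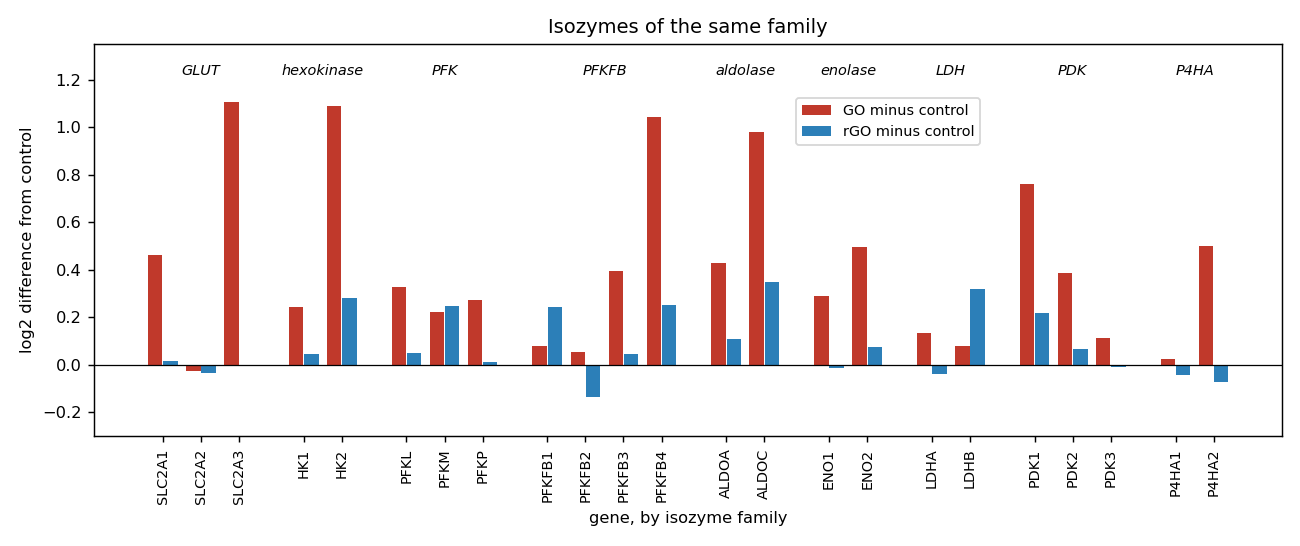
Log2 differences from control (bars from 0) for isozymes of the same family, with GO minus control on the left and rGO minus control on the right of each pair, from single arrays without error. SLC2A3, HK2, PFKFB4, ALDOC and PDK1 have the tallest GO bars of their families, whereas no rGO bar passes 0.35.

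Of the 5 measured genes of HIF and of oxygen sensing 0 reached 1.5-fold after GO, against 1.41% of all genes higher and 2.99% lower. A count of 0 among 5 genes is near these shares. EGLN3 and EPAS1 stood above the median of 0.26 of the 43 genes. HIF1A, which encodes the general alpha subunit, read 11.72 in the GO array, 11.69 in the rGO array and 11.75 in the control, a difference of -0.03 after GO, the arrays being nearly equal. EPAS1, encoding the alpha subunit best known from endothelium, read 11.34 in the GO array, 11.14 in the rGO array and 11.06 in the control and differed by 0.28. EGLN3, an oxygen sensor that HIF itself induces, read 7.09 in the GO array, 6.73 in the rGO array and 6.75 in the control, a difference of 0.34 near the weak-signal mark. EGLN1, the main sensor, differed by 0.08 after GO, and VHL by 0.13.

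The other hypoxia-inducible genes, outside glucose metabolism, were mixed. NDRG1, a stress-responsive gene strongly induced by hypoxia, read 10.30 in the GO array, 9.40 in the rGO array and 9.65 in the control, 1.57-fold higher with GO (0.65). The rGO array lay below control here, so that NDRG1 had a larger gap between GO and rGO (0.89) than between GO and control. P4HA2, a subunit of the collagen prolyl hydroxylase, read 9.43 in the GO array, 8.85 in the rGO array and 8.93 in the control and differed by 0.50, whereas its relative P4HA1 stood at 0.03 with 9.69 in the GO array, 9.62 in the rGO array and 9.66 in the control. BNIP3 and BNIP3L, receptors for the removal of mitochondria, stood at 0.31 and 0.34. ERRFI1, a feedback inhibitor of EGF receptors, stood at 0.25, and KDM3A, a histone demethylase, at 0.26.

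VEGFA, ADM, CA12, MXI1 and ANKRD37 lay below the median of the 43 genes, as did P4HA1 and, barely, ERRFI1. VEGFA, the growth factor of blood vessels, read 9.89 in the GO array, 9.79 in the rGO array and 9.67 in the control, a difference of 0.21, close to the median of 0.23 of the other hypoxia-inducible genes. ADM, the vasodilator adrenomedullin, differed by 0.15 and CA12, a carbonic anhydrase with a weak signal, by 0.06. MXI1, an antagonist of MYC, read 7.10 in the GO array, 7.14 in the rGO array and 7.10 in the control, and ANKRD37, an ankyrin repeat protein used as a hypoxia marker, read 7.15 in the GO array, 7.20 in the rGO array and 7.20 in the control. For MXI1 and ANKRD37 the 3 arrays nearly coincided.

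Set side by side, the 16 glycolytic enzymes had a median difference of 0.28 after GO and the 12 other hypoxia-inducible genes one of 0.23. All 16 enzymes were above control, 3 of them by 1.5-fold or more and 1 by 2-fold or more, against 48.7%, 1.41% and 0.174% of all genes. Of the other hypoxia-inducible genes 11 of 12 were above control, 1 by 1.5-fold or more and 0 by 2-fold or more, against the same shares of all genes. The gap between the medians was 0.05, small beside the range within each group, which ran from 0.08 to 1.09 for the enzymes and from -0.04 to 0.65 for the other genes. With list means in place of medians the gap was 0.17 (0.40 against 0.23), because a few enzymes stood far above the rest. It was 0.12 when only genes at or above the weak-signal mark were kept, since 4 dim enzymes dropped out. With transporters, PFKFB and PDK genes added, the 26 genes of glucose metabolism had a median of 0.31, with 6 at least 1.5-fold higher, against 1.41% of all genes. The 5 genes of HIF and oxygen sensing had a median of 0.13 and 0 past 1.5-fold, against 1.41% of all genes higher and 2.99% lower.

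**Figure D4:**
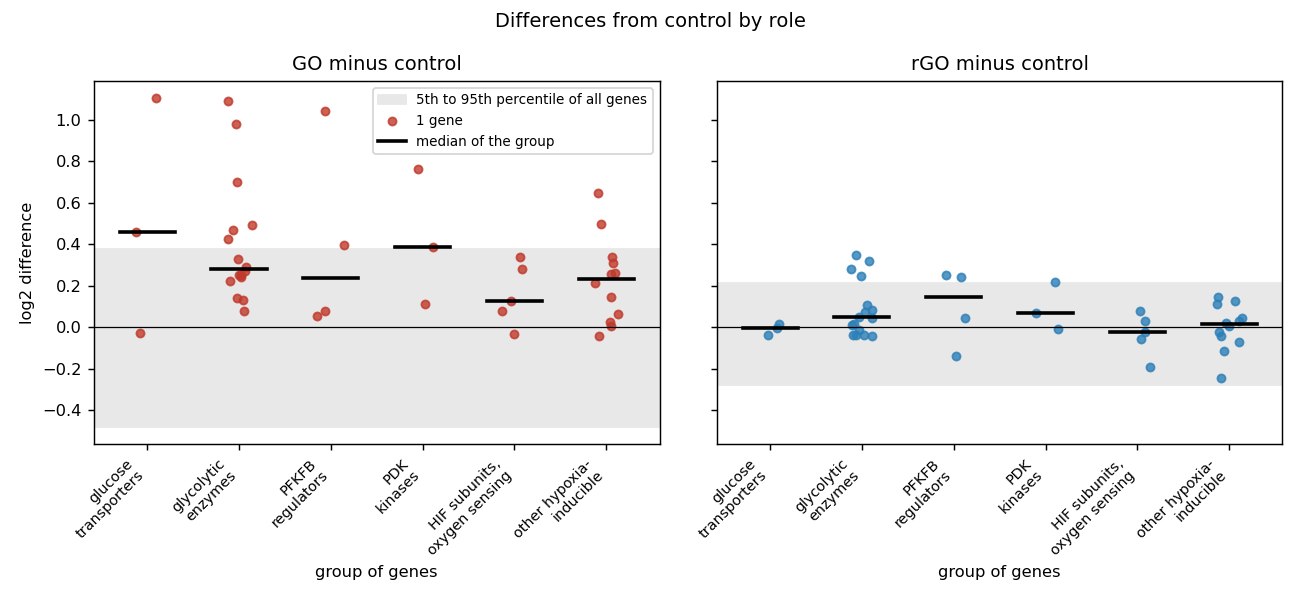
Log2 differences from control (y axis) of each gene (points) by role (x axis), for GO (left panel) and rGO (right panel), with the median of each group (bars) and the 5th to 95th percentile of all genes (grey). With GO the points extend above the grey band in every group but HIF and oxygen sensing, and with rGO most lie within it.

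In the rGO comparison, 26 of the 43 genes were above control, against 44.9% of all genes, and the median was 0.02, against -0.02 for all genes. Of the 43, 0 were 1.5-fold higher or lower, against 0.076% and 0.282% of all genes, and 0 were 2-fold higher or lower, against 0% and 0.0217%. ALDOC had the highest rGO difference of the group (0.35, place 189 of 18417), followed by the dim LDHB (0.32), HK2 (0.28), PFKFB4 (0.25) and PFKM (0.25). NDRG1 (-0.25), EGLN1 (-0.19) and PFKFB2 (-0.14) were lowest. The glycolytic enzymes had a median of 0.05 and the other hypoxia-inducible genes one of 0.01. Both comparisons use the same control array, so a control value that lay low would lift a gene in both.

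The GO and rGO arrays can be compared without the control. Of the 43 genes, 37 were higher with GO than with rGO, against 53.1% of all genes, with a median of 0.27, against 0.01. SLC2A3 was the 1 gene at least 2-fold higher (1.11), against 0.201% of all genes, and 6 were at least 1.5-fold higher, against 1.3%. On the lower side 0 passed 2-fold or 1.5-fold, against 0.358% and 2.2%. The 6 were SLC2A3, NDRG1 (0.89), HK2 (0.81), PFKFB4 (0.79), ALDOC (0.63) and GPI (0.61). The glycolytic enzymes had a median of 0.29 and the other hypoxia-inducible genes one of 0.13.

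Seen over all 3 arrays, the GO value was the highest for 35 of the 43 genes, against 39.8% of all genes. In 31 of these it lay above both other arrays by more than those differed from each other, against 25.3% of all genes. That was so for 14 of the 16 glycolytic enzymes, all but PFKM and LDHB, and for 7 of the 12 other hypoxia-inducible genes. The median size of the difference between rGO and control was 0.05 for the 43 genes and 0.09 for all genes. The rGO array is no repeat of the control, and this gives no error for the GO values.

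Neighbouring pathways were read from lists of known genes, also chosen with earlier results of these data known. Their counts describe the lists and are no independent evidence of a direction. Of 23 further hypoxia-inducible genes, 18 were above control after GO, against 48.7% of all genes. By 2-fold or more 2 were higher, against 0.174%, and 0 were lower, against 0.603%. The median was 0.29. IGFBP1, a binder of insulin-like growth factors, stood at 1.99, and BHLHE40, a transcriptional repressor of the circadian clock, at 1.53, places 1 and 3 of all genes. Both also respond to signals other than oxygen. Among 11 partners and degradation factors of HIF the median was 0.13. Past 2-fold 0 were higher, against 0.174% of all genes, and 1 was lower, against 0.603%. That gene was RBX1, a ring subunit of the ubiquitin ligase that VHL belongs to. It read 9.96 in the GO array, 10.96 in the rGO array and 11.00 in the control (-1.04). HIF1AN, the hydroxylase that blocks the HIF activation domain, stood at 0.54.

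Genes that store glucose or sense it are set against the same share of 48.7% of all genes above control. Of 9 glycogen genes, 7 were above control with a median of 0.26, including the branching enzyme GBE1 (0.50) and glycogen synthase GYS1 (0.42). Of 8 genes of the glucose-sensing factor ChREBP and its targets, 7 were above control with a median of 0.25. This list shares G6PC1 with the gluconeogenesis list below and another gene with the remaining glycolytic isozymes, so these lists are not separate. TXNIP, a glucose-induced inhibitor of glucose uptake, read 10.05 in the GO array, 9.21 in the rGO array and 9.31 in the control (0.74), while MLXIPL, which encodes ChREBP itself, was lower (-0.48). In the rGO comparison, the glycogen and ChREBP lists had medians of -0.06 and -0.06, and the values of TXNIP and MLXIPL were -0.10 and 0.29.

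Pathways that compete with glycolysis or take up its product had medians near 0 or below it after GO. The 8 gluconeogenesis genes had a median of 0.01, with the glucose phosphatase G6PC1 at 0.44 and the carboxykinase PCK1 at -0.26. The 6 pentose phosphate genes had a median of -0.01, with the epimerase RPE at -0.49 and the transketolase TKT at 0.08. The 8 remaining glycolytic isozymes had a median of -0.09, with 3 of them above control, against 48.7% of all genes. These are isozymes or relatives of glycolytic enzymes, whereas all 16 enzymes of the group were above control. Of the 8, 6 had means at or above the weak-signal mark, as had 12 of the 16. The 3 above control were among the 6. The share above control thus differed with the isozymes listed, in small lists that include weak signals. HKDC1, a hexokinase relative, stood at 0.62, and ENO3, the muscle enolase, at -0.45. The 9 genes that bring pyruvate into mitochondria had a median of -0.09, with MPC2, a subunit of the pyruvate carrier, at -0.74 and DLD, a subunit of pyruvate dehydrogenase, at -0.48. The 13 citric acid cycle genes had a median of 0.06, and the succinyl-CoA ligase subunits SUCLA2 and SUCLG1 stood at -1.25 and -0.46. SUCLA2 was the 1 gene of these 5 lists past 2-fold, where 0.174% of all genes were higher and 0.603% lower by as much.

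**Figure D5:**
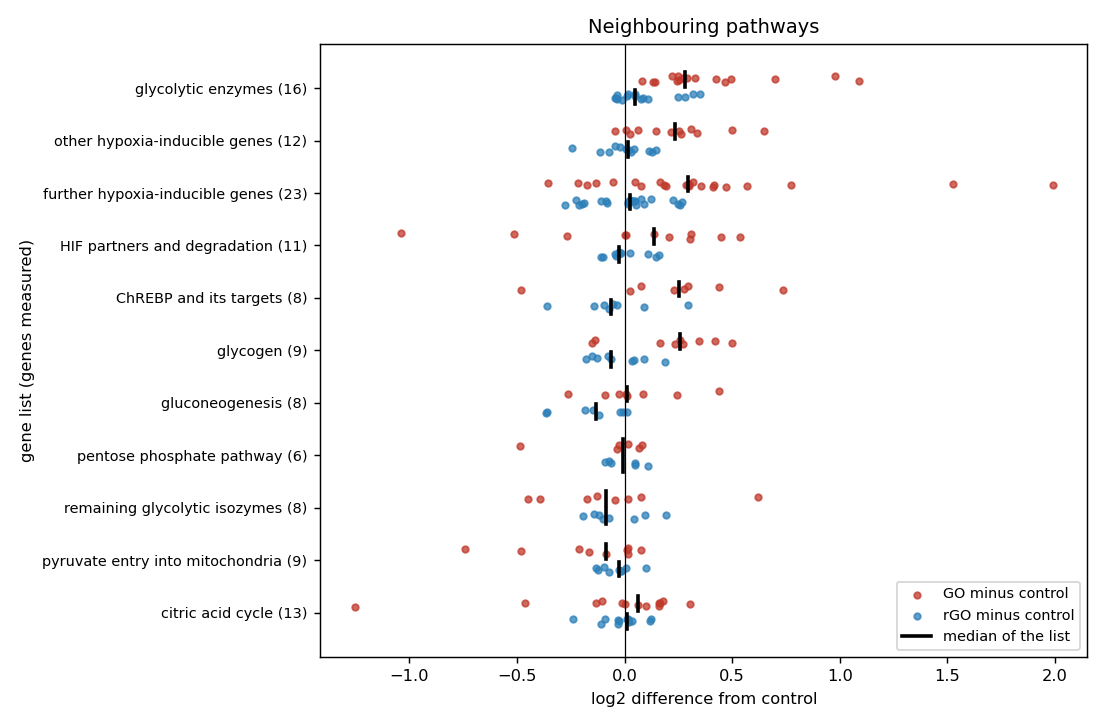
Log2 differences from control (x axis) of each gene (points) for 2 groups of the described genes and 9 neighbouring lists (rows, with the number measured), GO above rGO in each row and medians as bars. With GO the hypoxia, glycogen and ChREBP lists have medians right of 0, and the pentose phosphate, mitochondrial pyruvate and remaining isozyme lists have medians at or left of it.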

How the data were processed

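Gene expression was measured on 3 Affymetrix arrays, 1 each of HepG2 cells exposed to GO, exposed to rGO or untreated. The authors deposited log2 expression values for 33297 probe sets. RMA and MAS5 are named without a role or version, per the submitters' processing notes; the near-equal distributions look normalised between arrays, values were not centred per gene, and any further scaling is unknown. The authors' genome build is not given in the sources used here. Of the probe sets, 19460 had 1 gene symbol in GEO's platform annotation, which can be old, 1754 had several and the rest were unnamed here. The brightest probe set stood for each of 18417 genes, a choice that concerned 1 of the 43 genes described (TPI1).

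Values of 2 arrays were subtracted on the log2 scale, and genes were counted at 2-fold and 1.5-fold, without a test. All measured genes were kept, with a 40th percentile level filter as an alternative. The members and the lists were chosen with earlier results of these data known. All members may be named, and of each neighbouring list the 2 genes with the largest difference after GO; markers of cell types were fixed too. As alternatives served quantile normalization, median centring of each array, loess (span 0.3), level filters at the 40th and 60th percentile, averaged probe sets, list means and 1.5-fold. Counting and scaling steps were tested on simulated data. The number of arrays limits the precision. Windows around gene starts came from RefSeq (GRCh38.p14), matched by symbol for 37 of 43 genes. Python 3.11.15, numpy 2.4.6, pandas 2.3.3, statsmodels 0.14.6 and matplotlib 3.10.9 were used.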

Additional observations from a re-analysis of the deposited data

Results flagged for a closer look

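The 5 probe sets annotated to PGAM1 together with another gene were left out of the comparisons and were above control in the GO array, with a median log2 difference of 0.42. They read from 11.3 to 11.5 in the GO array, from 10.9 to 11.2 in the rGO array and from 10.8 to 11.1 in the control, and 2 of them held identical values. Which of their genes these probe sets read was not tested. Shared probe sets were flagged only where all of a gene lay above control, with GO or with rGO, so the direction follows from that rule. The 1 probe set annotated to EGLN2 together with another gene was not flagged and went the other way. It stood at -0.10 in the GO comparison and at -0.13 in the rGO comparison.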

How the results depend on the processing

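The median of the 43 genes after GO stayed between 0.26 and 0.33 in all alternatives, and the highest, 0.33, was the list mean. The glycolytic enzymes stood at 0.38 with either level filter and at 0.40 as a mean. Their gap over the other hypoxia-inducible genes in the GO comparison was 0.12 with either filter and 0.17 with means. In GO minus rGO that gap was 0.0805 with the 60th percentile filter and 0.0819 with means, since the other hypoxia-inducible genes then stood at 0.23 in both settings, and at 0.18 after quantile normalization; with rGO against control the gap was 0.0891 with means. At 1.5-fold in place of 2-fold, 7 genes were higher with GO than in the control and 6 higher with GO than with rGO. The count of 3 genes at 2-fold with GO against control was 2 with the 60th percentile filter, which drops PFKFB4, and 4 with median centring, which adds ALDOC. In the rGO comparison the small median of the other hypoxia-inducible genes turned negative in 3 settings, at -0.0208 with the 60th percentile filter, -0.000655 as a mean and -0.00509 after quantile normalization, and 16 of the 31 genes kept by that filter were above 0, against 26 of 43. Among single genes, 707 of 720 recomputed differences moved by less than 0.05, but many of them could not have moved more. The level filters leave the difference of a kept gene as it is, and averaging probe sets concerns TPI1 alone. Median centring shifts all genes of a comparison alike, by less than 0.05. Quantile normalization moved 13 of 129 differences by more, and loess 0 of 129. No difference of 1.5-fold or more changed sign. No paired analysis was possible because each group had 1 array, and no array could be left out. Probe brightness limits LDHB, HK1, PFKP, CA12, PFKM and PFKFB3, whose means lay under 6.66.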
